A study of Mus musculus with 6 samples.

Results

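Amino acid transporters of the SLC (solute carrier) superfamily were described in mouse embryonic stem cells that carry the R153A form of Nanog or wild-type Nanog. The genes were chosen by symbol, as the rows of the Slc1, Slc3, Slc6, Slc7, Slc36, Slc38 and Slc43 families with a value above 0 in at least 3 of the 6 libraries. Of 24083 genes in the table, 59 had such a symbol and 53 met the condition. The 6 left out were Slc6a5, Slc6a18, Slc6a19, Slc7a12, Slc7a13 and Slc38a11. The groups were Nanog R153A (3 libraries of polyadenylated RNA) and Nanog WT (3 libraries), both from embryonic stem cells kept without further treatment on gelatin in medium with fetal bovine serum, added L-glutamine, nonessential amino acids and LIF, the cytokine that sustains self-renewal. The sources used here state neither how R153A was introduced nor if a group's libraries stem from separate cultures or from 1 clone. The p-values then measure only the spread between these libraries, which may be technical. NANOG is a DNA-binding homeodomain protein that helps to keep stem cells pluripotent, and the comparison asked how cells with its R153A form differ in expression from cells with the wild-type form.

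Amino acid transporters sit in the plasma membrane and in lysosomes, and each carries a group of substrates that overlaps with those of its relatives. Physiologists named the activities as transport systems before the genes were known: system A and system ASC take up small neutral amino acids with sodium, system L exchanges large neutral ones, and system y+ takes up the cationic amino acids arginine and lysine. The heavy chain encoded by Slc3a2, also called CD98, forms a disulfide-linked pair with one of several Slc7 light chains, and the light chain moves the substrate. Mouse embryonic stem cells are known for their dependence on threonine, which they break down with threonine dehydrogenase, and on glutamine. The Slc6 family also holds carriers of other small molecules, such as creatine and taurine, and Slc43a3 is known as a carrier of purine nucleobases, so the families chosen by symbol are wider than amino acid transport in the strict sense.

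Values are FPKM (fragments scaled by gene length and by the library's mapped fragments), which are per length, so levels of different genes can be set side by side. Library sums of FPKM ranged over 360152 to 382086; read depth is unknown, since the table has no counts. Over the 11817 genes tested, pairs of libraries of 1 group had Pearson correlations of log2(FPKM + 1) of 0.995 to 0.996, and pairs across groups of 0.947 to 0.9501; they are across genes, which are not independent replicates. Nanog mRNA stood at 123 ± 5.16 FPKM in R153A and 253 ± 10.02 FPKM in WT (SD, n = 3 each), and since R153A is a substitution the mRNA level does not check the labels. All 12 stem cell markers examined were expressed in both groups, with 1 called higher, 9 lower and 2 not called in R153A. Over all genes tested 37.5% were called higher and 22.3% lower. Pou5f1 stood at 518 ± 8.84 FPKM in R153A and 688 ± 16.6 FPKM in WT. Markers of other cells are given by the limma fit without a filter on low values, in which 26.9% of all genes were called higher and 13.4% lower in R153A. In that fit 1 stem cell marker was higher, 8 were lower and 3 not called. Of 6 primitive streak markers 4 were higher, 1 (Gsc) lower and 1 not called, and they summed to 12.6 to 15.6 FPKM in R153A, against 1.21 to 2.04 FPKM in WT. Of 10 fibroblast or feeder markers 6 were higher and 4 not called, and they summed to 10.02 to 10.6 FPKM in R153A, against 6.46 to 7.21 FPKM in WT. Among them Fap was at 0.0113 FPKM at most, and Lum was listed at 0 in every WT library and in 1 R153A library. Of 7 primitive endoderm markers 2 were higher, 2 lower and 3 not called. They summed to 2.57 to 3.19 FPKM in R153A, against 3.20 to 4.49 FPKM in WT, and without Sox7 to 2.21 to 2.90 FPKM in R153A, against 1.44 to 1.96 FPKM in WT. Of 7 trophectoderm markers 3 were higher, 1 lower and 3 not called. They summed to 35.6 to 36.6 FPKM in R153A, against 59.6 to 66.2 FPKM in WT, a difference carried by Tfap2c, and the other 6 summed to 15.7 to 17.0 FPKM in R153A, against 6.70 to 8.84 FPKM in WT. In RNA from a whole culture, fewer cells of a type and less RNA per cell cannot be told apart. The part that these markers' cells had in the transporter values was not tested.

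R153A cells had less mRNA for the large neutral, cationic and ASC-type carriers that are most abundant in WT cells, and more for system A. Summed over the 53 genes, transporter mRNA was 623, 605 and 630.1 FPKM in the R153A libraries, against 690.1, 766 and 711 FPKM in the WT libraries. The 3 R153A sums lay below the 3 WT sums. The Slc7 family made up 30.9% ± 0.391 in R153A and 37.6% ± 0.769 in WT of that sum (SD, n = 3 each), and the Slc38 family 28.5% ± 0.375 in R153A and 17.4% ± 0.495 in WT. Slc38a2 ranked sixth by mean level in WT and first in R153A, whereas Slc7a5, Slc3a2, Slc7a3 and Slc1a5 held the 4 highest means in WT. In R153A the Slc38a2 libraries lay above those of Slc3a2 and Slc7a5, next in order, which overlapped each other. The 6 genes with the highest mean over all libraries (Slc7a5, Slc3a2, Slc7a3, Slc1a5, Slc38a2 and Slc6a8) together held 65.3% ± 0.440 in R153A and 71.5% ± 0.216 in WT.

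**Figure D1:**
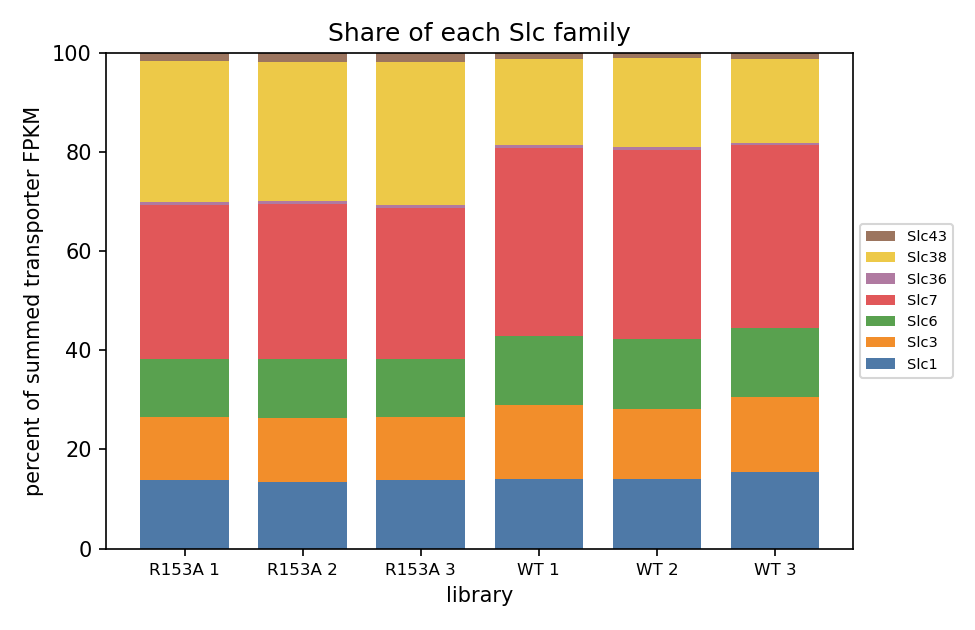
Share of each Slc family in the summed FPKM of the 53 transporters, in percent, with 1 bar for each library, R153A libraries on the left and WT libraries on the right. The Slc38 share averages 28.5% in R153A and 17.4% in WT, and the Slc7 share 30.9% in R153A and 37.6% in WT.

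Of the 53 genes, 27 reached 1 FPKM in at least 3 libraries and were tested with limma on log2(FPKM + 1), where calls needed a Benjamini-Hochberg adjusted p under 0.05 among the 11817 genes. The calls were 7 higher and 12 lower in R153A, with 8 not called. Over all genes tested, 59.8% were called, 37.5% higher and 22.3% lower, so calls were common among genes in general. Among the 27 tested transporters, of which 26 are described, 25.9% were called higher and 44.4% lower. Their median log2 fold change was -0.09, against 0.07 over all genes tested. The filter bears on these shares, since genes called lower include some that passed it only through WT, such as Slc38a5. No tested transporter passed only through R153A, while Slc1a6 and Slc7a2, called higher there without a filter, missed it. The R153A and WT libraries did not overlap in 19 of the 27 (70.4%), and in 65% of all genes tested. A call with at least a 2-fold change on the log2(FPKM + 1) scale was made for 1 of the 27, and for 8.29% of all genes tested. The split of calls over all genes depended on the scaling: 62.7% of the called genes were higher in R153A with values as deposited, 50.7% after median-ratio scaling and 47.4% after quantile normalization. Under the same scalings 7 and 6 transporters were called higher and 13 and 15 lower. Log2 fold changes are R153A minus WT on the log2(FPKM + 1) scale, which understates changes of low genes, while folds are ratios of mean FPKM.

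**Figure D2:**
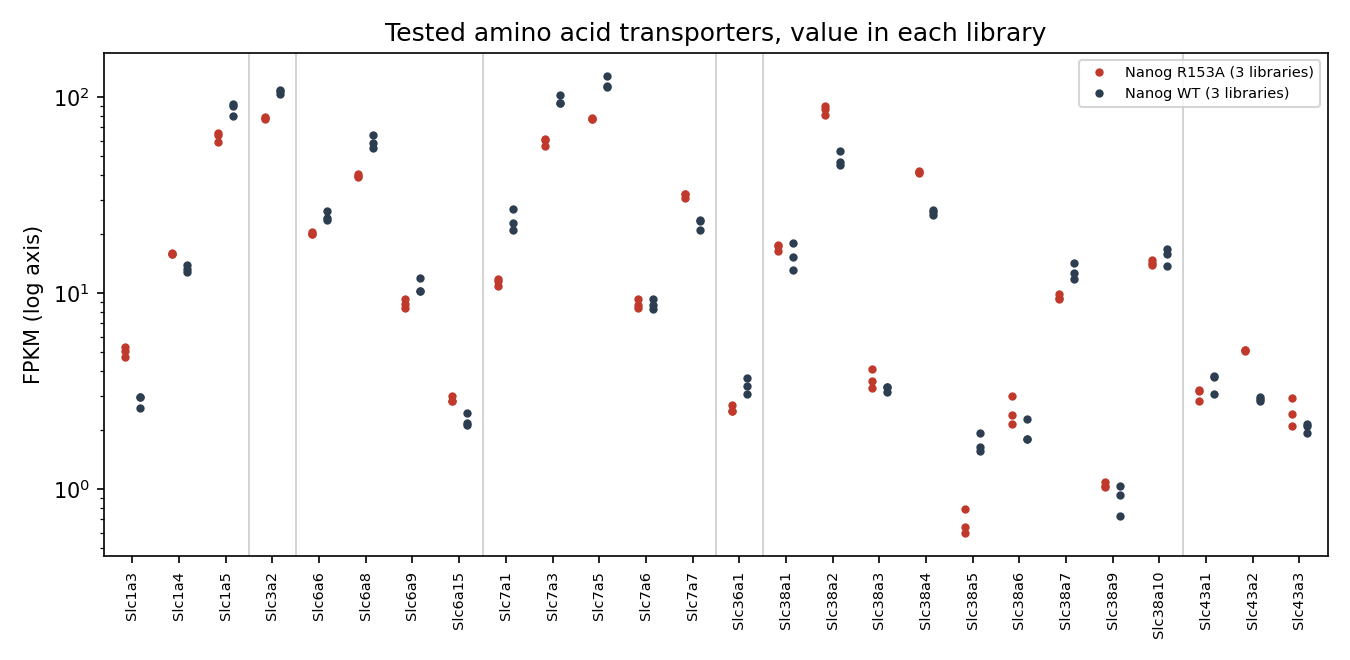
FPKM (log axis) of 26 tested transporters in each of the 6 libraries, R153A to the left of WT for each gene and families separated by vertical lines. Slc38a2 lies between 81.1 and 90.5 FPKM in R153A, above its 3 WT libraries, whereas Slc7a5, Slc3a2, Slc7a3 and Slc1a5 lie below theirs.

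The CD98 heavy chain and its main partner were both lower in R153A cells. Slc3a2 had 78.6, 77.6 and 79.5 FPKM in the R153A libraries, against 103, 108 and 109 FPKM in the WT libraries. Slc7a5, which encodes LAT1, the light chain of system L that brings in leucine and other large neutral amino acids, had 77.2, 78.6 and 77.5 FPKM in the R153A libraries, against 114, 128 and 113 FPKM in the WT libraries. For both genes each R153A library was below each WT library. The mean of Slc3a2 was 1.36-fold lower in R153A (log2 fold change -0.43, SE 0.0440, limma adjusted p = 7.4e-06), and that of Slc7a5 was 1.52-fold lower (log2 fold change -0.60, SE 0.0549, limma adjusted p = 3.3e-06).

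The y+L light chains, which pair with the same heavy chain and exchange cationic for neutral amino acids, differed from LAT1: 1 was called higher and the other was not called. Slc7a7, which encodes y+LAT1, had 32.0, 31.9 and 30.5 FPKM in the R153A libraries, against 21.0, 23.7 and 23.3 FPKM in the WT libraries. Its libraries did not overlap and its mean was 1.39-fold higher in R153A (log2 fold change 0.46, SE 0.0576, limma adjusted p = 4.4e-05). Slc7a6, which encodes y+LAT2, had 8.38, 8.67 and 9.35 FPKM in R153A, against 8.25, 8.66 and 9.28 FPKM in WT. These overlapped, and the unadjusted 95% interval of the Slc7a6 log2 fold change was -0.14 to 0.16; its sign was below 0 under all 3 other scalings. Among the 7 light chains that pair with a heavy chain, Slc7a5 held 64.8, 65.3 and 65.3% in the R153A libraries, against 79.0, 79.3 and 76.9% in the WT libraries. Slc7a7 held 26.8, 26.5 and 25.7% in the R153A libraries, against 14.5, 14.7 and 15.9% in the WT libraries. In each R153A library the LAT1 share was thus below, and the y+LAT1 share above, that of every WT library. The light chain sum was 119, 120.4 and 119 FPKM in the R153A libraries, against 145, 162 and 147 FPKM in the WT libraries, 1.27-fold lower in R153A. The ratio of Slc3a2 to that sum was 0.660, 0.645 and 0.670 in the R153A libraries, against 0.714, 0.664 and 0.742 in the WT libraries, which overlapped between the groups. The ratio of Slc7a5 to Slc7a7 was 2.47 ± 0.0640 in R153A and 5.23 ± 0.341 in WT (SD, n = 3 each). These ratios are descriptions without a test.

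Other light chains were at low levels in both groups. Slc7a11, the cystine and glutamate exchanger xCT, stood at 0.209, 0.215 and 0.229 FPKM in R153A, against 0.251, 0.274 and 0.233 FPKM in WT, and did not pass the expression filter. Slc7a8, the second system L light chain, had 0.754, 0.713 and 0.709 FPKM in R153A, against 0.654, 0.728 and 0.692 FPKM in WT, values that overlapped. Slc7a9, which pairs with the kidney and gut heavy chain Slc3a1, had 0.525, 0.232 and 0.356 FPKM in R153A, against 0.232, 0.201 and 0.233 FPKM in WT, while Slc3a1 itself reached at most 0.158 FPKM in a library.

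Several amino acid transporter genes are known targets of ATF4, the transcription factor that cells make when amino acids run short. ATF4 binds, with C/EBP partners, amino acid response elements that contain TGATGNAA or a close variant. RefSeq promoters (GRCm38.p6, 250 bases before to 50 after a start) were at hand for 38 of the 53 transporters and searched for these letters on both strands. The letters were in 4 of their 58 promoters (6.9%), against 3.97% of all 32851 promoters at hand. Those 4 belonged to Slc1a4, Slc7a7 and Slc7a11. They include overlapping windows of different Slc7a7 starts that share 1 match, so that match is counted more than once. These stretches are shown because they hold the matches, from 150 bases before to 30 after the start, with the match in capitals; in Slc1a4 and for the second match in Slc7a11 it is read on the opposite strand.
Slc1a4, chr11:20332684-20332863, minus strand: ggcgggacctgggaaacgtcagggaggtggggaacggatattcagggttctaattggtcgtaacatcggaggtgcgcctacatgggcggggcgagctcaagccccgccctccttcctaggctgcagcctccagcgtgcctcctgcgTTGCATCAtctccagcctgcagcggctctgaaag
Slc7a7, chr14:54417915-54418094, minus strand: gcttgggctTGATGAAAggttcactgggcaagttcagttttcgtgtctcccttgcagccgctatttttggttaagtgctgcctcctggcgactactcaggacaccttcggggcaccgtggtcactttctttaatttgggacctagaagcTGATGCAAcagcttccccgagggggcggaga
Slc7a11, chr3:50443584-50443763, minus strand: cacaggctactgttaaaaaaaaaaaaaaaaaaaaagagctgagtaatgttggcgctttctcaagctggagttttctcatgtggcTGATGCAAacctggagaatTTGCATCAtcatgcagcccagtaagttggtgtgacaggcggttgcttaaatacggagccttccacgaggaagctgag
The first Slc7a11 match begins 66 bases and the second 47 bases before the start, a pair known in this gene from work on its induction by amino acid shortage. The Slc7a7 matches begin 141 bases and 1 base before the start, the nearer of them also lying within the window of a second Slc7a7 start, and the Slc1a4 match 4 bases before it. Slc7a7 was higher in R153A and Slc7a11 missed the filter, as given above; Slc1a4 is described with its family. A match describes letters and is not evidence of binding.

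Both cationic amino acid carriers of system y+ that were tested were lower in R153A. Slc7a1, which encodes CAT1, the arginine and lysine carrier that also serves as receptor of ecotropic murine leukaemia virus, had 11.6, 10.9 and 11.8 FPKM in the R153A libraries, against 22.8, 26.9 and 21.0 FPKM in the WT libraries. Slc7a3, which encodes CAT3, had 61.1, 56.1 and 60.1 FPKM in the R153A libraries, against 93.5, 103 and 93.1 FPKM in the WT libraries. The groups did not overlap for either gene. The mean of Slc7a1 was 2.07-fold lower (log2 fold change -0.98, SE 0.0820, limma adjusted p = 1.6e-06) and that of Slc7a3 1.63-fold lower (log2 fold change -0.70, SE 0.0551, limma adjusted p = 1.0e-06). Slc7a2, which encodes CAT2, was far less abundant and went the other way, with 1.11, 1.06 and 0.972 FPKM in R153A, against 0.479, 0.564 and 0.506 FPKM in WT; it missed the filter, and without a filter its limma adjusted p was 9.9e-04. Slc7a3 made up 82.6% ± 0.186 in R153A and 80.1% ± 1.18 in WT of the system y+ mRNA. The 3 genes summed to 73.8, 68.0 and 72.8 FPKM in the R153A libraries, against 117, 130.2 and 115 FPKM in the WT libraries, 1.68-fold lower in R153A. The y+L pair summed to 40.3, 40.6 and 39.8 FPKM in the R153A libraries, against 29.2, 32.4 and 32.6 FPKM in the WT libraries, 1.28-fold higher, so the ratio of system y+ to y+L mRNA was 1.78 ± 0.0874 in R153A and 3.84 ± 0.283 in WT (SD, n = 3 each).

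**Figure D3:**
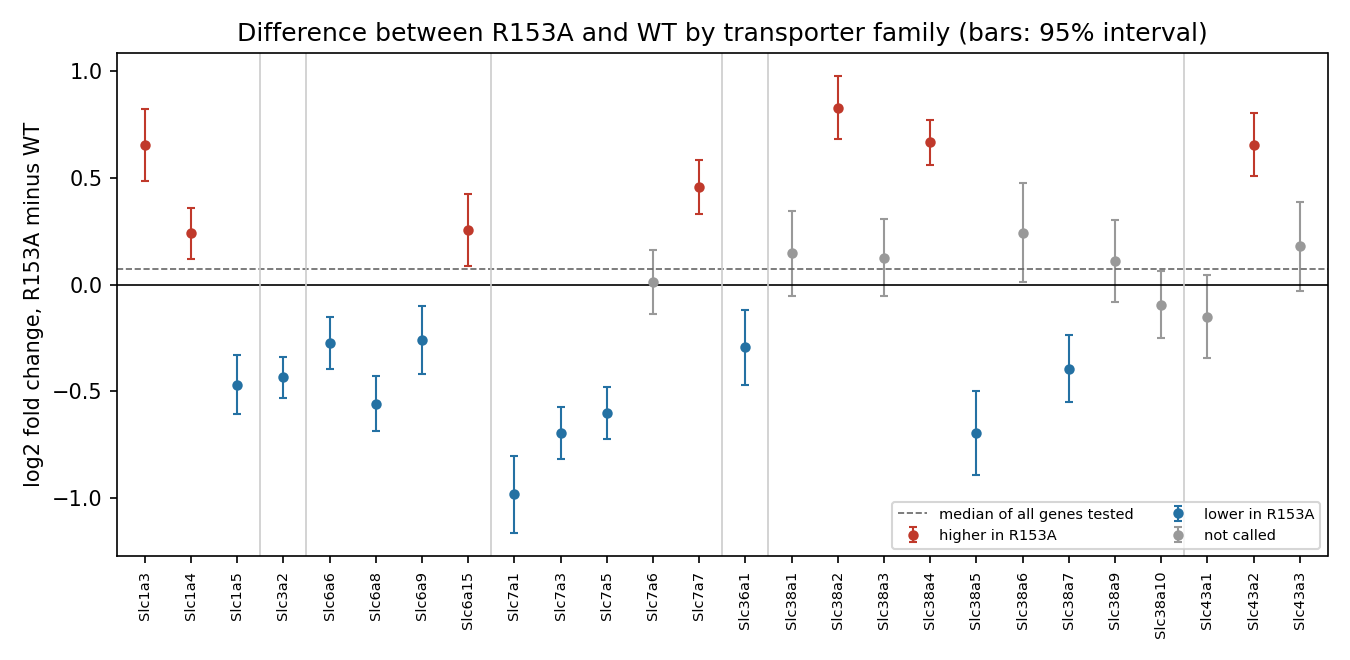
Log2 fold change (R153A minus WT, with 95% intervals from limma) of 26 tested transporters in family order, with the median of all genes tested as a dashed line. Slc7a1 at -0.98 is the lowest drawn, and Slc38a2 at 0.83 is highest.

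System A mRNA was higher in R153A cells, through a pair of its 3 genes. Slc38a2, which encodes SNAT2, the system A carrier known to be induced when amino acids are scarce, had 87.1, 81.1 and 90.5 FPKM in the R153A libraries, against 46.5, 53.2 and 45.0 FPKM in the WT libraries. Slc38a4, which encodes SNAT4 and is a paternally expressed imprinted gene in mouse, had 41.1, 41.6 and 41.9 FPKM in the R153A libraries, against 25.0, 26.6 and 25.9 FPKM in the WT libraries. Each R153A library was above each WT library for both genes. The mean of Slc38a2 was 1.79-fold higher (log2 fold change 0.83, SE 0.0670, limma adjusted p = 1.2e-06) and that of Slc38a4 1.61-fold higher (log2 fold change 0.67, SE 0.0474, limma adjusted p = 4.5e-07). Slc38a1, which encodes SNAT1, had 17.3, 16.4 and 17.6 FPKM in R153A, against 15.4, 17.9 and 13.2 FPKM in WT. The Slc38a1 libraries overlapped and it was not called (limma adjusted p = 0.186). It was called without WT replicate 2 (log2 fold change 0.25, limma adjusted p = 0.0173, 0.0173 to 0.645 across alternatives). The 3 system A genes follow each other along chromosome 15 among protein-coding genes in RefSeq's GRCm38.p6 annotation. Their sum was 145, 139 and 150.02 FPKM in the R153A libraries, against 86.9, 97.6 and 84.1 FPKM in the WT libraries, 1.62-fold higher in R153A, and the ratio of system A to ASC mRNA was 1.84 ± 0.0206 in R153A and 0.889 ± 0.0802 in WT (SD, n = 3 each).

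None of the other 6 Slc38 genes tested was called higher in R153A, and 2 were lower. Among all genes tested these shares were 37.5% and 22.3%. Slc38a5, a system N carrier of glutamine and histidine, had 0.641, 0.596 and 0.795 FPKM in R153A, against 1.94, 1.64 and 1.57 FPKM in WT, which did not overlap, and its mean was 2.54-fold lower in R153A (log2 fold change -0.70, SE 0.0887, limma adjusted p = 4.7e-05). All R153A values were under 1 FPKM, so the gene passed only through WT, and its log2 fold change was -1.23 with a pseudocount of 0.1. Slc38a7, a lysosomal glutamine exporter, had 9.36, 9.94 and 9.44 FPKM in R153A, against 11.8, 14.3 and 12.7 FPKM in WT, also without overlap, and was 1.35-fold lower (limma adjusted p = 6.5e-04). Slc38a3, the second system N gene, stood at 3.65 ± 0.402 FPKM in R153A and 3.25 ± 0.0950 FPKM in WT (SD, n = 3 each). Slc38a6, a carrier less well described, stood at 2.51 ± 0.435 FPKM in R153A and 1.96 ± 0.269 FPKM in WT. Slc38a10, another such member, stood at 14.3 ± 0.436 FPKM in R153A and 15.4 ± 1.499 FPKM in WT. Slc38a9, the lysosomal arginine sensor of mTORC1, stood at 1.05 ± 0.0337 FPKM in R153A and 0.901 ± 0.158 FPKM in WT. These 4 genes overlapped between the groups and were not called; the 95% intervals of the log2 fold change, not adjusted for the number of genes, were -0.05 to 0.30 for Slc38a3, 0.01 to 0.47 for Slc38a6, -0.25 to 0.06 for Slc38a10 and -0.08 to 0.30 for Slc38a9. Slc38a6 passed without R153A replicate 3 (limma adjusted p = 0.0334) or without WT replicate 2 (0.0383), with a range of 0.0327 to 0.81 over the alternatives. Slc38a10 passed without WT replicate 1 (0.0434) and under median-ratio scaling (0.0206) or quantile normalization (0.0251), with a range of 0.0206 to 0.653. For Slc38a3 and Slc38a9 the direction was the opposite under quantile normalization.

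**Figure D4:**
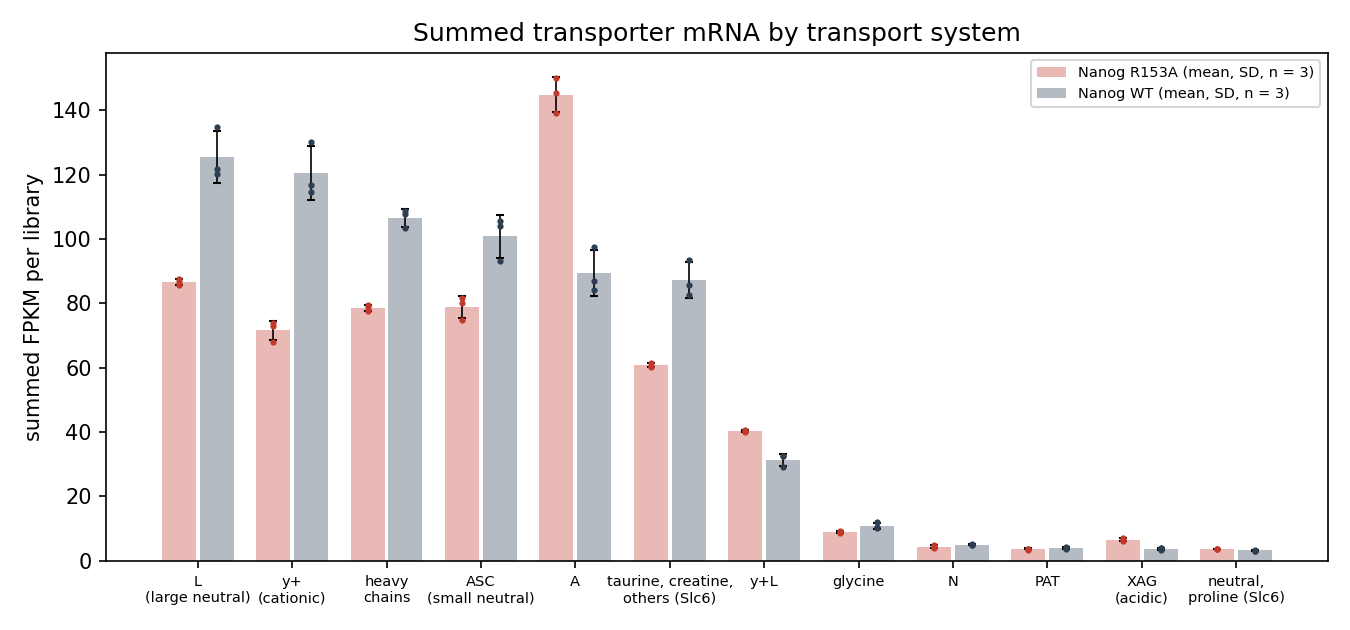
Summed FPKM of the transporters of each named transport system and of the heavy chains, with bars for the mean, error bars for the SD over 3 libraries, and points for single libraries, R153A to the left of WT. System A averages 145 FPKM in R153A and 89.5 FPKM in WT, whereas systems L, y+ and ASC and the heavy chains are lower in R153A.

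In the Slc1 family, 1 of the 2 neutral carriers was lower in R153A, while the other and the only tested acidic carrier were higher. Calls were made for 59.8% of all genes tested, 37.5% higher and 22.3% lower. Slc1a5, which encodes ASCT2, a glutamine exchanger of proliferating cells, had 64.1, 59.2 and 65.7 FPKM in the R153A libraries, against 80.4, 90.1 and 92.2 FPKM in the WT libraries. Its groups did not overlap and its mean was 1.39-fold lower (log2 fold change -0.47, SE 0.0621, limma adjusted p = 6.5e-05). Slc1a4, which encodes ASCT1, a serine and alanine exchanger, and holds the promoter match shown above, had 16.04, 15.7 and 15.9 FPKM in R153A, against 12.8, 13.9 and 13.3 FPKM in WT, a 1.19-fold higher mean without overlap (limma adjusted p = 0.00289). Slc1a3, the glutamate and aspartate carrier GLAST, had 5.05, 5.29 and 4.71 FPKM in R153A, against 2.58, 2.97 and 2.95 FPKM in WT. It was 1.77-fold higher without overlap (log2 fold change 0.65, SE 0.0766, limma adjusted p = 2.5e-05). Under the filter, Slc1a6, which encodes the glutamate carrier EAAT4 of Purkinje cells, had 1.16, 1.33 and 0.954 FPKM in R153A, against 0.240, 0.308 and 0.200 FPKM in WT, and Slc1a1, which encodes EAAT3, had 0.270, 0.216 and 0.264 FPKM in R153A, against 0.506, 0.434 and 0.515 FPKM in WT. Neither overlapped, and without a filter the limma adjusted p was 4.8e-04 for Slc1a6 and 0.00244 for Slc1a1.

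Among the sodium- and chloride-coupled Slc6 carriers described here, 3 were lower in R153A and 1 was higher. For all genes tested the shares were 22.3% lower and 37.5% higher. Slc6a8, the creatine carrier, had 39.3, 39.7 and 40.5 FPKM in the R153A libraries, against 55.0, 64.2 and 58.5 FPKM in the WT libraries. It was 1.49-fold lower without overlap (log2 fold change -0.56, SE 0.0585, limma adjusted p = 1.0e-05). Smaller falls without overlap were those of Slc6a6, the taurine carrier, at 20.2 ± 0.222 FPKM in R153A and 24.6 ± 1.42 FPKM in WT (limma adjusted p = 0.00129), and of Slc6a9, the glycine carrier GlyT1, at 8.84 ± 0.424 FPKM in R153A and 10.8 ± 0.944 FPKM in WT (limma adjusted p = 0.00937). Slc6a15, a carrier of branched-chain amino acids and proline, was higher, with 2.80, 2.99 and 2.82 FPKM in R153A, against 2.16, 2.43 and 2.13 FPKM in WT (log2 fold change 0.26, limma adjusted p = 0.0129). The call on Slc6a15 ended under quantile normalization (limma adjusted p = 0.537, 0.00556 to 0.537 across alternatives). Slc6a7, the proline carrier of brain, missed the filter with 0.236, 0.124 and 0.232 FPKM in R153A, against 0.728, 0.563 and 0.761 FPKM in WT, values that did not overlap (limma adjusted p = 0.00147 without a filter).

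The Slc43 and Slc36 families each held 1 called gene, of 3 tested in Slc43 and 1 tested in Slc36. Of all genes tested 59.8% were called. Slc43a2, which encodes LAT4, a system L carrier that needs no heavy chain, had 5.11, 5.09 and 5.14 FPKM in the R153A libraries, against 2.88, 2.83 and 2.95 FPKM in the WT libraries. Its groups did not overlap and its mean was 1.77-fold higher in R153A (log2 fold change 0.65, SE 0.0667, limma adjusted p = 7.8e-06). Its relative Slc43a1, which encodes LAT3, stood at 2.81, 3.22 and 3.17 FPKM in R153A, against 3.72, 3.05 and 3.79 FPKM in WT, and Slc43a3 at 2.41, 2.09 and 2.92 FPKM in R153A, against 1.93, 2.09 and 2.15 FPKM in WT. Both overlapped and were not called, with unadjusted 95% intervals of -0.34 to 0.04 for Slc43a1 and -0.03 to 0.39 for Slc43a3. Slc43a1 passed as lower under quantile normalization (limma adjusted p = 0.00969) and without WT replicate 2 (0.0374), with a range of 0.00969 to 0.409, and Slc43a3 without R153A replicate 2 (0.0385, range 0.0385 to 0.749). The 4 system L genes summed to 85.9, 87.6 and 86.5 FPKM in the R153A libraries, against 122, 135 and 120.1 FPKM in the WT libraries, 1.45-fold lower in R153A although LAT4 was higher. Slc36a1, which encodes PAT1, a proton-coupled carrier of glycine, alanine and proline in lysosomes, had 2.68, 2.49 and 2.50 FPKM in R153A, against 3.35, 3.70 and 3.06 FPKM in WT, a 1.32-fold lower mean in R153A without overlap (log2 fold change -0.29, and -0.48 under quantile normalization; limma adjusted p = 0.00793). Its relative Slc36a4 had 0.907, 0.898 and 1.06 FPKM in R153A, against 0.203, 0.357 and 0.386 FPKM in WT, 3.03-fold higher in R153A without overlap; it missed the filter, and its limma adjusted p without one was 0.00117.

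The 26 transporters under the filter reached at most 1.33 FPKM in any library, and 19 of them stayed under 0.5 FPKM throughout. In a fit without a filter, over 20504 genes, 5 of the 26 were called higher and 4 lower in R153A. The 5 higher ones were Slc1a6, Slc7a2, Slc36a4, Slc6a11 and Slc6a17, and the 4 lower ones Slc1a1, Slc1a7, Slc6a7 and Slc36a3. Over all 53 transporters that fit gave 12 higher and 16 lower, against 26.9% higher and 13.4% lower of all genes in it. Genes entered that fit with a value above 0 in any library, whereas the 53 needed it in at least 3. The shares are therefore not of like sets. A value of 0 in this table can be a failed estimate, since Hmgcs1, an enzyme of cholesterol synthesis, is listed at 0 for all 6 libraries.

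Gene models that overlap another gene were checked, because no source used here says if strand was used in counting. Among protein-coding genes in RefSeq, Slc7a3 overlaps Snx12, Slc7a7 overlaps Oxa1l, Slc6a9 overlaps Ccdc24 and Slc38a6 overlaps Trmt5. Reads in the shared stretches may have been split between them. Several other tested transporters, among them Slc38a4, Slc38a1, Slc6a8 and Slc6a6, overlap noncoding models without values here. Slc43a2 overlaps Mir3971, which averaged 0.0695 FPKM in R153A and 0.0576 FPKM in WT. Snx12 stood at 35.1 ± 1.44 FPKM in R153A and 33.3 ± 2.21 FPKM in WT and Oxa1l at 25.7 ± 1.21 FPKM in R153A and 23.8 ± 1.27 FPKM in WT (SD, n = 3 each), and neither was called (limma adjusted p = 0.292 for Snx12 and 0.151 for Oxa1l). Ccdc24 was higher in R153A (log2 fold change 0.43, limma adjusted p = 0.00234), opposite to Slc6a9, and so was Trmt5 (log2 fold change 0.25, limma adjusted p = 0.0241), the direction of the uncalled Slc38a6.

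Genes around the transporters were counted in lists chosen by function, and some stand in more than 1 list. The ATF4 list shares Asns, Cth, Psat1, Phgdh, Psph and Shmt2 with the substrate enzymes, Chac1 with the glutathione list and Sesn2 with the mTORC1 list. In the ATF4 and amino acid response, 3 of 26 tested genes rose, 17 fell and 6 were not called, with a median log2 fold change of -0.35. Over all genes tested 37.5% were called higher and 22.3% lower, with a median of 0.07. The falls were led by Nupr1, a small stress-induced chromatin protein, at 17.8 ± 0.0245 FPKM in R153A and 58.96 ± 7.73 FPKM in WT, Ddit3, which encodes CHOP, at 17.6 ± 0.296 FPKM in R153A and 48.6 ± 4.44 FPKM in WT, and Pck2, the mitochondrial PEP carboxykinase, at 13.4 ± 0.181 FPKM in R153A and 35.1 ± 1.88 FPKM in WT (SD, n = 3 each). Ddit4, a stress-induced inhibitor of mTORC1, rose, with 568 ± 12.4 FPKM in R153A and 260.0 ± 12.7 FPKM in WT. The log2 fold changes were -1.66 for Nupr1, -1.41 for Ddit3, -1.32 for Pck2 and 1.12 for Ddit4, with limma adjusted p between 7.0e-09 and 1.8e-08. Atf4 itself was lower, with 146, 135 and 145 FPKM in R153A, against 181, 179.8 and 185 FPKM in WT (log2 fold change -0.36, limma adjusted p = 5.7e-05). Of the 27 tested transporters 7 were called higher, among them Slc38a2, Slc1a4 and Slc7a7. The 12 called lower included Slc3a2, Slc7a5, Slc7a1, Slc7a3 and Slc1a5. A link of these transporters' levels to ATF4 was not tested.

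Enzymes that make or use the carried substrates were mostly lower. Of 36 such genes present 34 were tested, of which 10 rose, 20 fell and 4 were not called, with a median log2 fold change of -0.35. Over all genes tested 37.5% were called higher and 22.3% lower. The falls of Asns, Cth, Psat1, Phgdh, Psph and Shmt2 are counted in the ATF4 list as well, so the 2 lists are not separate observations. Tdh, the threonine dehydrogenase of embryonic stem cells, stood at 46.9 ± 0.921 FPKM in R153A and 105 ± 4.55 FPKM in WT. Pycr1, which makes proline, stood at 4.91 ± 0.234 FPKM in R153A and 13.5 ± 0.464 FPKM in WT, and Cth, which makes cysteine, at 30.8 ± 0.646 FPKM in R153A and 60.7 ± 1.26 FPKM in WT. Ckb, the creatine kinase that uses the substrate of Slc6a8, stood at 137 ± 5.06 FPKM in R153A and 300.2 ± 5.12 FPKM in WT. All 4 fell without overlap, with log2 fold changes of -1.14 for Tdh, -1.30 for Pycr1, -0.95 for Cth and -1.12 for Ckb, and limma adjusted p between 6.8e-09 and 2.4e-08.

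The machinery by which amino acids reach mTORC1 was called higher about as often as genes in general. Of 39 tested genes 16 rose, 6 fell and 17 were not called, with a median log2 fold change of 0.10. The shares of all genes tested were 37.5% higher and 22.3% lower, with a median of 0.07. Rragd, a Rag GTPase, stood at 13.7 ± 0.298 FPKM in R153A and 4.96 ± 0.523 FPKM in WT, and Sesn3, which encodes a Sestrin that restrains mTORC1, at 13.1 ± 0.119 FPKM in R153A and 7.05 ± 0.470 FPKM in WT. Gatsl2, whose relative is the arginine sensor CASTOR1, stood at 3.99 ± 0.146 FPKM in R153A and 0.581 ± 0.1102 FPKM in WT and passed the filter only through R153A. These 3 rose and Lamtor2, a Ragulator subunit, fell, with 52.3 ± 0.848 FPKM in R153A and 88.6 ± 9.66 FPKM in WT; their limma adjusted p lay between 2.6e-08 and 3.8e-06.

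Glutathione is made from cysteine, which xCT brings in as cystine. In a list of 12 glutathione and antioxidant genes, calls were about as common as in general, with 5 higher, 3 lower and 4 not called. The median log2 fold change was 0.06, against 37.5% higher, 22.3% lower and a median of 0.07 over all genes tested. The list also holds the antioxidant genes Nfe2l2, Keap1, Txnrd1, Nqo1 and Hmox1, which do not make glutathione. Nfe2l2, Keap1 and Txnrd1 were among the 5 higher. Gclc, the catalytic subunit of the first step, rose to 31.3 ± 2.88 FPKM in R153A, against 20.4 ± 0.969 FPKM in WT. Gss, which completes the tripeptide, fell, with 4.23 ± 0.123 FPKM in R153A and 7.08 ± 0.368 FPKM in WT, as did Gsr, the reductase, with 23.9 ± 0.940 FPKM in R153A and 37.3 ± 0.832 FPKM in WT, and Chac1, which degrades glutathione, with 17.0 ± 1.27 FPKM in R153A and 31.8 ± 3.43 FPKM in WT (SD, n = 3 each). Of the carriers and partners outside the chosen families, 11 of 19 were tested, of which 6 rose, 2 fell and 3 were not called. The shares over all genes tested were again 37.5% higher and 22.3% lower. The largest changes were those of Slc15a1, the peptide carrier PepT1, at 0.228 ± 0.0487 FPKM in R153A and 1.60 ± 0.0403 FPKM in WT, which passed the filter only through WT, and Pqlc2, a lysosomal exporter of cationic amino acids, at 6.19 ± 0.326 FPKM in R153A and 3.60 ± 0.318 FPKM in WT. They were followed by Slc16a10, the aromatic amino acid carrier TAT1, at 2.52 ± 0.0831 FPKM in R153A and 1.44 ± 0.227 FPKM in WT, and Arl6ip5, a partner that restrains the glutamate carrier Slc1a1, at 18.2 ± 0.324 FPKM in R153A and 12.3 ± 0.376 FPKM in WT. Their log2 fold changes were -1.08 for Slc15a1, 0.65 for Pqlc2, 0.53 for Slc16a10 and 0.53 for Arl6ip5, with limma adjusted p between 5.5e-07 and 3.2e-04.

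**Figure D5:**
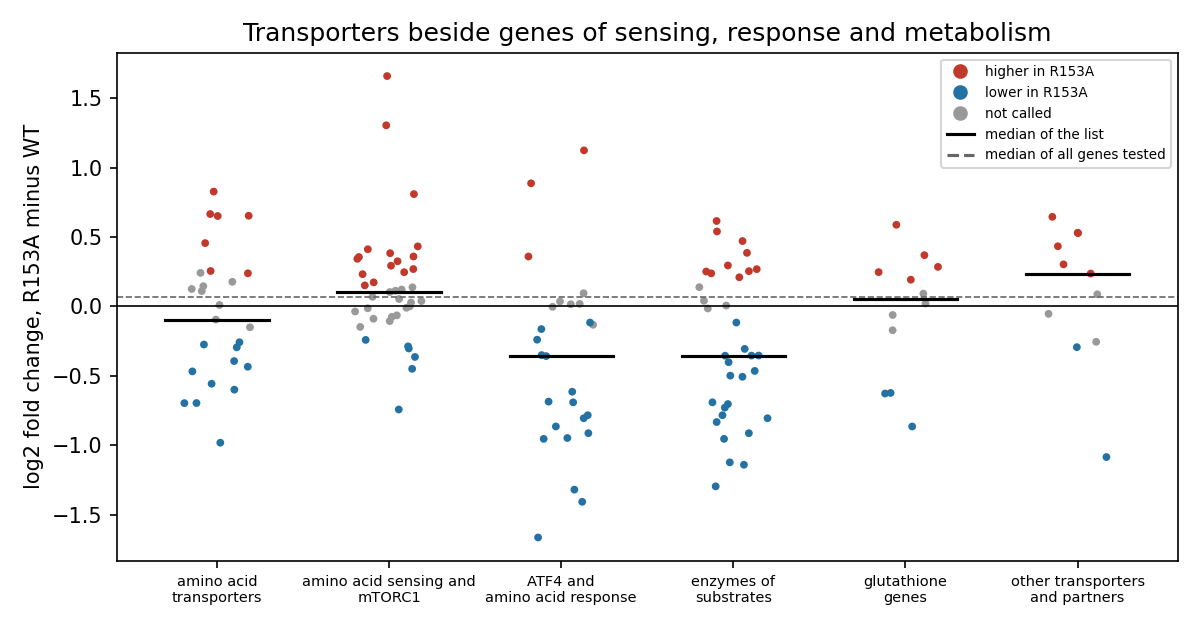
Log2 fold change (R153A minus WT) of 26 tested transporters and of each tested gene in the 5 lists of related genes, with the list median (of all 27 for the transporters) as a black bar and the median of all genes tested as a dashed line; points are spread sideways for sight only. The medians of the ATF4 response and of the substrate enzymes are -0.35, below that of the transporters.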

How the data were processed

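Polyadenylated RNA of 6 libraries was analysed, 3 of Nanog R153A and 3 of Nanog WT stem cells. The authors deposited 1 table of FPKM values by gene symbol. Build mm9, edgeR 3.26.8, HTSeq 0.11.2, SAMtools 1.9 and Bowtie2 2.3.4.3 are named, per the submitters' processing notes, without roles. No source used here gives the annotation, strand setting, filters or the tool behind the FPKM values.

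FPKM values were used as deposited, as log2(FPKM + 1), for genes at 1 FPKM or more in at least 3 libraries, with limma 3.58.1 in R 4.3.3 (mean-variance trend, 2-sided, Benjamini-Hochberg over all genes tested). A larger pseudocount lowers fold changes of low genes. Folds are given where every library reached 0.1 FPKM. The fit was tested on simulated data with independent normal values for each library. That simulation cannot show how a shared culture or clone would act on the calls. Python 3.11.15 and matplotlib 3.10.9 drew the figures. Lists and systems are described by counts, medians and sums, without list tests.

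1 tested transporter is counted but not reported here. The other tested transporters were named, as were untested ones that reach 0.5 FPKM, and up to 4 called genes with the largest changes of each list. Slc3a1, Slc7a11, Atf4, Pou5f1, the other cell markers, Hmgcs1, the overlapping genes and the 9 untested transporters called without a filter were named after their values were seen, as was the promoter search. Members and lists were chosen with earlier results of these data known. Alternatives left out each library in turn, blocked on the replicate number, used robust moderation or limma without trend, 3 other scalings, a filter of 5 FPKM or none, or other pseudocounts.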

Additional observations from a re-analysis of the deposited data

How the results depend on the processing

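Of the 19 called transporters, 18 kept their direction and call in each of the 15 or 16 alternatives that tested them; the exception was Slc6a15 under quantile normalization. Without a filter on low values 12 transporters were called higher in R153A, because more genes were tested. With a filter of 5 FPKM 2901 of 8071 genes tested were called higher, against 4428 of 11817 in the main fit, so fewer genes were tested. Leaving out each library in turn gave 7 to 9 transporters called higher and 12 to 13 lower, and 6282 to 6909 genes called in all. The sign was the opposite under quantile normalization for Slc38a3 (-0.046), Slc38a9 (-0.21, limma adjusted p = 0.0429, range 0.0429 to 0.704 over the alternatives) and Slc43a3 (-0.033). For the uncalled Slc7a6 it was below 0 under median-ratio scaling (-0.065), TPM (-0.012) and quantile normalization (-0.083), and without R153A replicate 3 (-0.030) or WT replicate 1 (-0.025), within a range of -0.030 to 0.051 over the left-out libraries. The cause was not tested. Same-numbered libraries did not deviate together (r = -0.0487, -0.00946 and 0.0600 for numbers 1 to 3, and only number 3 correlated best with itself). The labels do not say if the numbers pair the libraries, and these correlations cannot show if same-numbered libraries were prepared together. With the replicate block, 6876 genes were called, 8 transporters higher (Slc38a6 added) and 12 lower. Without read counts, depth gives no interval for single values, and the 26 transporters under the filter are the least certain.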

Other observations

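Some related rows fell outside the symbols chosen. Slc6a20a and Slc6a20b, a pair of mouse proline carriers with a letter after the number, reached at most 0.12 FPKM and 0.0299 FPKM in a library. Slc7a6os, a gene beside Slc7a6, stood at 19.2 ± 2.36 FPKM in R153A and 20.9 ± 1.15 FPKM in WT (SD, n = 3 each) and was not called (log2 fold change -0.12, SE 0.0808, limma adjusted p = 0.242). Slc36a1 and Slc36a3, which lie near each other on chromosome 11 in RefSeq, were both lower in R153A, Slc36a3 without a filter, at 0, 0.0107 and 0.0577 FPKM in R153A, against 0.150, 0.130 and 0.157 FPKM in WT. Slc36a2, which lies between them, overlapped between the groups at 0.0578 ± 0.0333 FPKM in R153A and 0.0791 ± 0.0148 FPKM in WT. It was not called without a filter (limma adjusted p = 0.449).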
